A study of Mus musculus with 20 samples.

Results

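Endothelial cells line the vessels and the inner surface of the heart, and the genes described here are those that mark them in mouse ventricle. The 10 genes were taken as a list of names, with no threshold on their values, but with earlier results of these data known. Their counts below, set beside those of all probe sets, are therefore no independent test. The genes are Pecam1, Cdh5, Emcn, Tek, Tie1, Kdr, Flt1, Eng, Vwf and Icam2. They are 10 of the 8251 genes with a probe set of their own on an Affymetrix mouse array, and 15 probe sets carried them, with 4 genes on several probe sets and 6 genes on 1. Of the 15 probe sets, 14 were bright enough to be tested. The remaining one, Emcn 93884_at, read only 18.2 to 21.3 intensity units over the arrays.

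RNA came from cardiac ventricular tissue, and 19 arrays fell into 4 groups by their titles. There were 5 arrays of tTA +Doxy, 8 of tTA, 4 of FVBN +Doxy and 2 of Fvbn control. tTA is the tetracycline transactivator, a fusion protein that switches on genes placed behind its DNA sites, and doxycycline (Doxy) keeps it off those sites. The tTA groups carry the transgene in FVBN mice, the FVBN groups are wild type mice of that background, and the +Doxy group of each genotype received the drug. Keywords on some of the samples name the alpha MHC promoter, which is active in cardiomyocytes and not in endothelium, so the marker genes belong mainly to cells in which that promoter is not known to act. The labels used here give no dose, age or sex, and name no gene driven by tTA, and the tTA transcript itself was not analysed here. Whether each array is a separate animal is not labelled, so p-values reflect only how far these samples spread, and precision is limited by how many arrays there are. The labels do not say what the array numbers stand for. FVBN arrays are numbered 8177 to 8341, and tTA arrays (both groups) 7288 to 7488 or 9310 and 9322. No number range holds both genotypes, so genotype and whatever the numbers stand for cannot be told apart. Each group has numbers close together, except that tTA arrays 9310 and 9322 lie apart from the other 6 tTA arrays, beyond those of all other groups. With those 2 left out, the counts of called members were as with them in each comparison (1 without Doxy, 0 under Doxy and 4 in the average of both).

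As background, endothelial identity rests on a few families of surface proteins. VEGF acts on the receptors Kdr and Flt1, angiopoietins act on Tek with Tie1 as its partner, and endoglin (Eng) is a co-receptor for TGF-beta family ligands. Cdh5 (VE-cadherin) and Pecam1 hold neighbouring endothelial cells together, Icam2 binds leukocyte integrins, Emcn (endomucin) is a mucin-like surface glycoprotein of capillaries, veins and endocardium, and Vwf is stored in endothelial granules and takes part in platelet adhesion. ETS and GATA factors are known activators of many endothelial genes.

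Promoter windows are shown for 3 members, namely Emcn, the member with a called difference on both tested probe sets, and the VEGF receptors Kdr and Flt1, which had none. RefSeq promoter entries on GRCm38.p6 were found for 6 of the 10 members (Emcn, Tek, Tie1, Kdr, Flt1 and Eng), each with 250 bases before and 50 after the start. Capitals mark the letters AGGAA or its reverse complement TTCCT, a form of the core read by ETS factors. They also mark GATAA or its reverse complement TTATC, a form of the core read by GATA factors. Only these letters are counted below as ETS and GATA cores, and other forms of either core were not searched. Both strands were searched and no base was shared by both motifs. The windows are Emcn chr3:137340828-137341127 on the plus strand, Kdr chr5:75978406-75978705 on the minus strand and Flt1 chr5:147725962-147726261 on the minus strand.
Emcn: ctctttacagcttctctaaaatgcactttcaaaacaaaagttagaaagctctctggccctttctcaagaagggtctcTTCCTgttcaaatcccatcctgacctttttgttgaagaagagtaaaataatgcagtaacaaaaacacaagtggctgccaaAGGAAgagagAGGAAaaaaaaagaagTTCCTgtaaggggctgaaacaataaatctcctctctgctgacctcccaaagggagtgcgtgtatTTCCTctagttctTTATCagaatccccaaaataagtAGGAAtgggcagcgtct
Kdr: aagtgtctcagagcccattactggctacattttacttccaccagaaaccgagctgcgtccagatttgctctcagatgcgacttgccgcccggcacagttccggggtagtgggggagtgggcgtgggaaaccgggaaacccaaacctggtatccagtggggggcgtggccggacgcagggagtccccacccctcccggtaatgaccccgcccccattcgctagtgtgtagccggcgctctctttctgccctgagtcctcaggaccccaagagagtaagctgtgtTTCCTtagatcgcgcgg
Flt1: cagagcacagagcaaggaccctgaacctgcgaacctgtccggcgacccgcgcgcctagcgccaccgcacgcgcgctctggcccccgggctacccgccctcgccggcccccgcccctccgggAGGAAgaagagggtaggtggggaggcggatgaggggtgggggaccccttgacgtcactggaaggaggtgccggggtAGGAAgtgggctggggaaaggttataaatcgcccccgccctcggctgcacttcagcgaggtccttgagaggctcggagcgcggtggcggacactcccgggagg

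The Emcn window held 6 ETS cores and 1 GATA core. The Flt1 window held 2 ETS cores and the Kdr window held 1, and neither held a GATA core. Of the other members with an entry, Tie1 had 4 ETS cores, Eng had 3 and Tek had 2 with 1 GATA core. All 6 windows held at least 1 ETS core, as did 66.7% of the 32851 promoter windows of the same length, and 2 of the 6 held a GATA core against 25.4% of all windows. These are matches of letters only, and binding was not measured.

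All values below are normalized intensities of single probe sets, so levels are compared between arrays and never between probe sets. Cardiomyocyte genes were bright on every array, with Myh6 at 3790 to 4771 and Tnnt2 at 2778 to 3568, as the tissue label states. Within groups the arrays correlated at r of 0.993 to 0.998 over all probe sets. One technical measure moved with genotype. The beta-actin control, read as log2 of its 3' over its 5' probe set, averaged 0.338 on the 13 tTA arrays (both tTA groups) and 0.522 on the 6 FVBN arrays (exact two-sided permutation p = 0.00059, 0.00118 after Benjamini-Hochberg adjustment over 2 ratios). The same ratio for Gapdh averaged 0.0387 on tTA arrays and 0.0398 on FVBN arrays (exact permutation p = 0.975). The log2 level of Xist, used below as a covariate, set 1 control array apart. It was 4.06 on Fvbn control array 8182 and 5.15 to 5.98 on every other array with a group.

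Across both genotype comparisons averaged, 3 of the 10 genes were lower in tTA ventricles: Emcn, on both of its tested probe sets, Icam2 and Cdh5. They fell by 11.6% to 14.2%. Of the 14 tested member probe sets 4 were called lower and 0 higher at an adjusted p below 0.05 in limma, where 4.27% of all 7453 tested probe sets were called lower and 9.02% were called in either direction. The estimate was below 0 for 13 of the 14, with a median log2 difference of -0.07, while 49.6% of all tested probe sets were below 0 around a median of 0.00074. In ventricular tissue as a whole, fewer endothelial cells and less RNA of these genes per cell cannot be told apart. The other members, the VEGF and angiopoietin receptors, Eng, Pecam1 and Vwf, did not pass.

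These calls depended on whether the beta-actin ratio was in the fit and on single arrays. With that ratio as a covariate 0 of the 14 were called, while the log2 differences of the 4 stayed below 0. Emcn 93885_g_at was at -0.20 with the ratio in the fit and -0.19 without it, Icam2 at -0.28 and -0.22, Cdh5 at -0.16 and -0.20, and Emcn 94997_at at -0.11 and -0.18. Their adjusted p with the ratio were 0.123 for Emcn 93885_g_at, 0.0642 for Icam2, 0.326 for Cdh5 and 0.485 for Emcn 94997_at. The part of the ratio in the result was not tested further. The average also shares its arrays with the comparisons below and is no separate support for them.

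**Figure D1:**
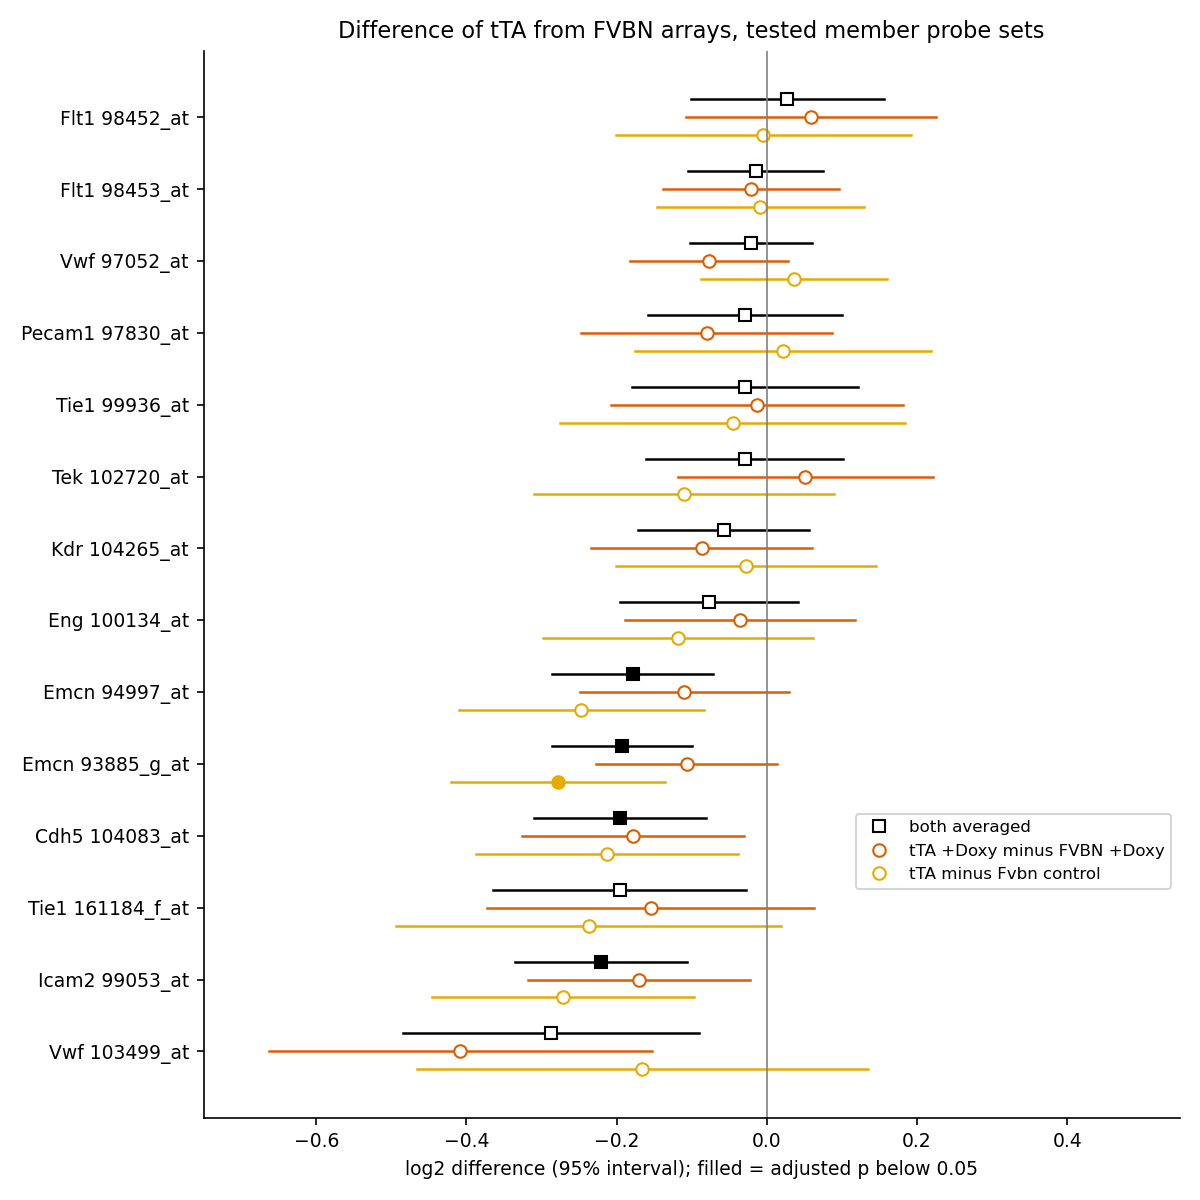
Log2 difference of tTA from FVBN arrays with its 95% interval for the 14 tested member probe sets: both genotype comparisons averaged (black squares), tTA +Doxy minus FVBN +Doxy (orange) and tTA minus Fvbn control (yellow). Filled symbols passed an adjusted p below 0.05: both Emcn probe sets, Cdh5 and Icam2 in the average, and Emcn 93885_g_at without Doxy.

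Without Doxy, the question is what tTA alone goes with in the ventricle. The comparison of tTA with Fvbn control gave 1 called member probe set of 14, Emcn 93885_g_at, which was lower. Over all tested probe sets 2.82% were called and 1.82% were called lower. The median log2 difference of the 14 was -0.11, with 12 below 0, against a median of 0.01 for all tested probe sets. For both Emcn probe sets, Icam2 and Tie1 161184_f_at every tTA array lay below both control arrays. There were only 2 control arrays, and how many of all tested probe sets separated in this way was not counted.

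Emcn 93885_g_at read 165 at the lowest, 174 at the median and 195 at the highest of the 8 tTA arrays, against 196 and 232 on the 2 Fvbn control arrays. The groups just failed to touch, and control array 8177 stood well above all others. The log2 difference was -0.28 ± 0.07 (SE), or -17.5%, with an adjusted p of 0.027 and all 8 tTA arrays below the control mean. Without array 8177 the difference was -0.16 with an adjusted p of 0.601.

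The second Emcn probe set, 94997_at, read 157, 169.9 and 195 at the lowest, median and highest tTA array, against 196 and 212 on the Fvbn control arrays. Its log2 difference of -0.25 ± 0.08 had an adjusted p of 0.0927 and did not pass. Icam2 read 116, 122 and 133 at the lowest, median and highest tTA array, against 137 and 160.1 on the control arrays. Its log2 difference was -0.27 ± 0.08 (adjusted p = 0.0835), so the separation of the arrays did not carry it past the threshold over all probe sets.

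Cdh5 read 283, 313 and 354 at the lowest, median and highest tTA array, against 339.7 and 387 on the Fvbn control arrays. One tTA array, 7311 at 354, lay between both controls and the other 7 lay below them. The log2 difference was -0.21 ± 0.08 with an adjusted p of 0.198.

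Under Doxy, the same genotype difference was asked where the drug holds tTA off its DNA sites. Of the 14 member probe sets 0 were called in tTA +Doxy against FVBN +Doxy in limma, where 5.89% of all tested probe sets were called and 1.6% were called lower. An unadjusted p under 0.05 was reached by 3 of the 14, and by 1574 of all 7453 tested probe sets. The median log2 difference was -0.08, with 12 of the 14 below 0, against a median of -0.01 for all tested probe sets. The member nearest to the threshold was Vwf on probe set 103499_at.

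Vwf 103499_at read 107, 109, 110.3, 126 and 128 on the tTA +Doxy arrays, against 131, 143, 158 and 187 on the FVBN +Doxy arrays. The groups did not overlap, and array 8337 was the highest of the FVBN +Doxy group. The log2 difference was -0.41 ± 0.12, or -24.6%, with an adjusted p of 0.0554. It passed under 4 of 12 other settings. Adjusted p were 0.0268 (array weights), 0.0286 (only the arrays compared), 0.0391 (no intensity trend or robust option) and 0.0445 (brightest 40% of probe sets). Across the 12 settings the log2 difference shrank to as little as -0.25, and the adjusted p rose to as much as 0.232. Without Doxy the same probe set read 98.0, 128 and 153 at the lowest, median and highest tTA array, against 121 and 169 on the Fvbn control arrays, a log2 difference of -0.17 ± 0.14 (adjusted p = 0.605).

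The other Vwf probe set, 97052_at, was at 79.5 to 85.3 on tTA +Doxy arrays and at 82.3 to 94.6 on FVBN +Doxy arrays. Without Doxy it was at 72.9 to 86.4 on tTA arrays and at 75.5 to 82.4 on Fvbn control arrays. Its log2 difference under Doxy was -0.08 ± 0.05 (adjusted p = 0.398), and in the average of both comparisons it was -0.02, against -0.29 ± 0.09 (adjusted p = 0.0657) for 103499_at. The 2 Vwf probe sets had a correlation of -0.08 across the 19 arrays after the group means were taken out, so they did not track one another.

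Emcn 93885_g_at read 167, 170.2, 173, 176 and 190.4 on the tTA +Doxy arrays, against 174, 189, 193 and 199 on the FVBN +Doxy arrays. The groups overlapped, with FVBN +Doxy array 8337 lowest of its group and tTA +Doxy array 7486, the highest of its own, above both 8337 and 8340. The log2 difference was -0.11 ± 0.06 with an adjusted p of 0.302. Emcn 94997_at read 155, 163, 164, 182 and 186 on the tTA +Doxy arrays, against 163, 185, 191 and 196 on the FVBN +Doxy arrays, a log2 difference of -0.11 ± 0.07 (adjusted p = 0.359).

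Icam2 read 116, 120.1, 122, 122 and 138 on the tTA +Doxy arrays, against 123, 125, 152 and 158 on the FVBN +Doxy arrays. The FVBN +Doxy arrays fell into a lower and a higher pair, and the lower pair lay among the tTA +Doxy values. The log2 difference was -0.17 ± 0.07 (adjusted p = 0.164). Cdh5 read 241, 267, 287, 288 and 296 on the tTA +Doxy arrays, against 278, 299, 333 and 338 on the FVBN +Doxy arrays. Only FVBN +Doxy array 8338 lay inside the tTA +Doxy range, and the log2 difference was -0.18 ± 0.07 (adjusted p = 0.148).

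**Figure D2:**
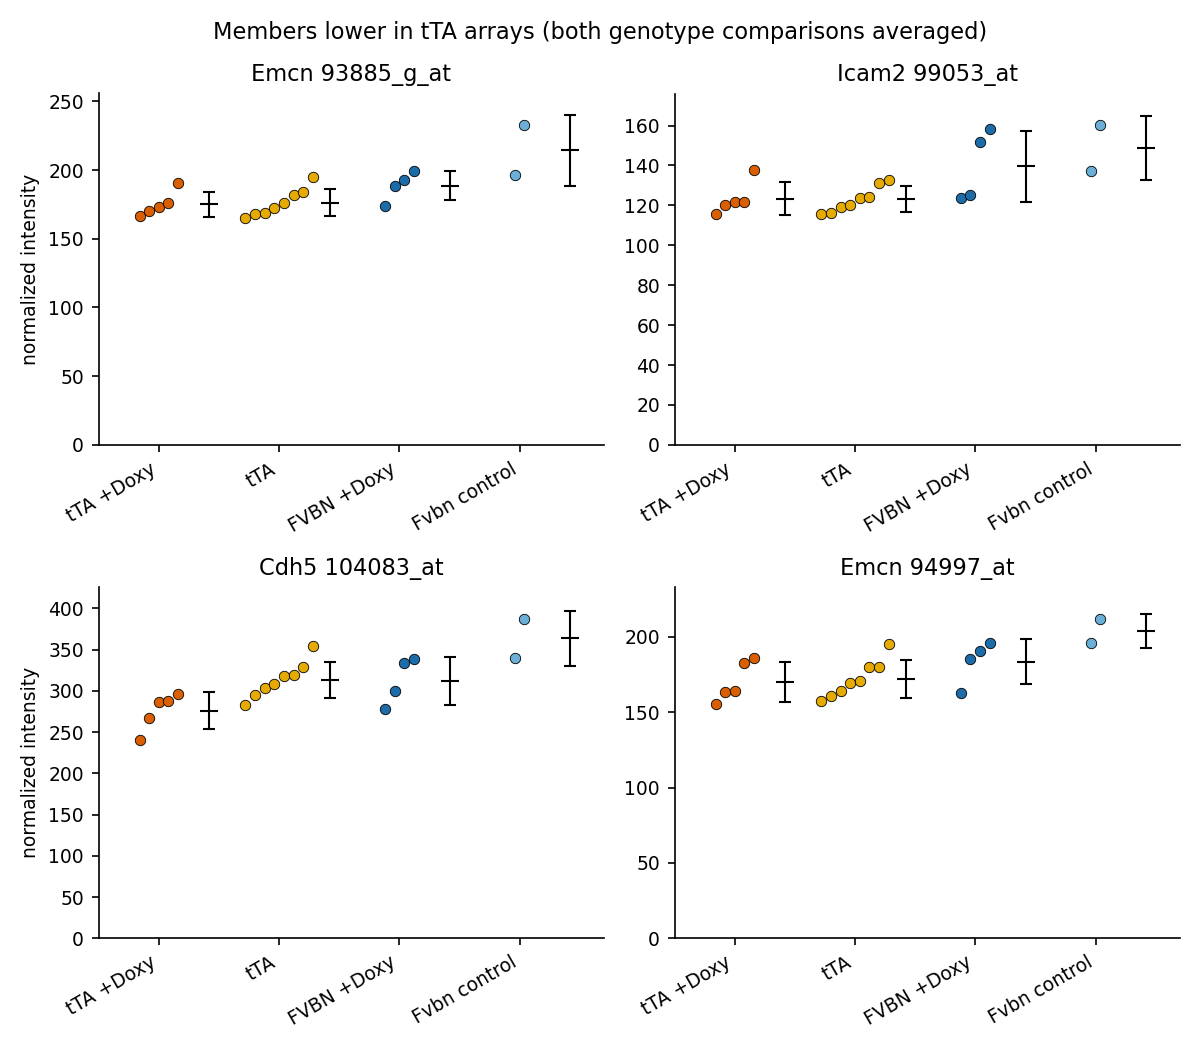
Normalized intensity of the 4 member probe sets called lower in the average of both genotype comparisons, by group, with 1 point per array and the group mean ± SD as a bar beside the points. The tTA arrays of Emcn 93885_g_at, Emcn 94997_at and Icam2 lie below both Fvbn control arrays, while the +Doxy groups overlap on all 4.

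In the average of both comparisons Emcn 93885_g_at had a log2 difference of -0.19 ± 0.04 (adjusted p = 0.00833), with 12 of 13 tTA arrays below the mean of their own FVBN group. Emcn 94997_at had -0.18 ± 0.05 (adjusted p = 0.0322, 12 of 13). Icam2 had -0.22 ± 0.06 (adjusted p = 0.013) and Cdh5 had -0.20 ± 0.06 (adjusted p = 0.0281), and all 13 tTA arrays lay below the mean of their FVBN group for both genes. Some calls were lost when 1 array was left out, with every difference still below 0. Emcn 93885_g_at lost its call without control array 8177 (-0.13, adjusted p = 0.156), and Icam2 lost its call without control array 8182 (-0.17, adjusted p = 0.176). Cdh5 lost its call without control array 8182 (-0.15, adjusted p = 0.243), and also without FVBN +Doxy array 8337 (-0.18, adjusted p = 0.0559), FVBN +Doxy array 8340 (-0.18, adjusted p = 0.0604) or tTA +Doxy array 7488 (-0.17, adjusted p = 0.0515). Emcn 94997_at lost its call in 8 of the 19 fits that left out 1 array, where its difference lay between -0.21 (without 8182, adjusted p = 0.0691) and -0.15 (without 8177, adjusted p = 0.204).

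Both Emcn probe sets lay lower in tTA by a like amount, yet their deviations from the group means correlated at r = -0.01 over the 19 arrays. The dim probe set 93884_at could be fitted only when all probe sets were kept. It then gave -0.06 in the average of both comparisons (adjusted p = 0.397). The letter g in 93885_g_at is the maker's mark for a probe set whose probes may be shared with another set, and f in 161184_f_at marks probes that may match related sequences.

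The VEGF receptors were not called in any comparison. Kdr, the main signalling receptor of VEGF, read 102, 117, 119, 125 and 133 on the tTA +Doxy arrays, against 113, 126, 127 and 140.3 on the FVBN +Doxy arrays. On tTA arrays it read 108, 114 and 129.7 at the lowest, median and highest, against 117 and 120.2 on Fvbn control arrays. The groups overlapped in both comparisons. The average log2 difference was -0.06, with a 95% interval of -0.17 to 0.06 (adjusted p = 0.637).

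Flt1, the receptor that also acts as a trap for VEGF, had 2 tested probe sets. On 98453_at it read 192, 200.4, 208, 213 and 222 on the tTA +Doxy arrays, against 194, 207, 212 and 227 on the FVBN +Doxy arrays, and 187, 206 and 216 at the lowest, median and highest tTA array, against 195 and 215 on Fvbn control arrays. The 4 groups lay on top of each other. Probe set 98452_at read 80.0 to 101 on tTA +Doxy arrays and 73.5 to 90.2 on FVBN +Doxy arrays, and 76.6 to 95.8 on tTA arrays and 80.8 to 97.3 on Fvbn control arrays. The average log2 difference was -0.01 (interval -0.11 to 0.08) on 98453_at and 0.03 (interval -0.10 to 0.16) on 98452_at, which was the only member probe set with an average above 0.

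Of the angiopoietin receptors, Tek read 51.6, 57.6, 60.96, 61.3 and 68.9 on the tTA +Doxy arrays, against 53.0, 55.7, 55.8 and 67.3 on the FVBN +Doxy arrays. Without Doxy it read 53.8, 62.9 and 68.5 at the lowest, median and highest tTA array, against 61.8 and 71.8 on Fvbn control arrays. The groups overlapped in both comparisons. The log2 difference was 0.05 ± 0.08 under Doxy and -0.11 ± 0.10 without it, and the average was -0.03 (interval -0.16 to 0.10, adjusted p = 0.878).

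Tie1 had 2 probe sets that differed in size of change. Probe set 99936_at read 116 to 172 on tTA +Doxy arrays and 127 to 135 on FVBN +Doxy arrays, and 115 to 150.3 on tTA arrays and 136 to 139 on Fvbn control arrays. On 99936_at the average log2 difference was -0.03 (interval -0.18 to 0.12, adjusted p = 0.896). On 161184_f_at it was -0.20 ± 0.08 (adjusted p = 0.155), with 12 of 13 tTA arrays below their FVBN mean. Probe set 161184_f_at read 51.9 to 73.4 on tTA +Doxy arrays and 68.5 to 81.0 on FVBN +Doxy arrays, and 50.8 to 78.3 on tTA arrays and 78.4 to 80.3 on Fvbn control arrays. Unlike the other genes with several tested probe sets, the Tie1 pair moved together across arrays, with r = 0.63 over the 19 arrays.

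Eng read 843, 922, 940.4, 959 and 1037 on the tTA +Doxy arrays, against 854, 898, 992 and 1123 on the FVBN +Doxy arrays. Without Doxy it read 843, 965 and 1059 at the lowest, median and highest tTA array, against 1024 and 1051 on Fvbn control arrays. The groups overlapped, and the average log2 difference was -0.08 (interval -0.20 to 0.04, adjusted p = 0.505). Pecam1, the adhesion molecule most used to stain endothelium, read 99.99, 112, 117, 118 and 120.2 on the tTA +Doxy arrays, against 110.0, 110.5, 129 and 131 on the FVBN +Doxy arrays. On tTA arrays it read 100.4, 116 and 132 at the lowest, median and highest, against 103 and 124 on Fvbn control arrays. These groups overlapped throughout. The average log2 difference of Pecam1 was -0.03, with an interval of -0.16 to 0.10 (adjusted p = 0.878). For Kdr, Flt1, Tek, Eng, Pecam1 and Tie1 99936_at the lower ends of these intervals lay between -0.20 and -0.10, and a p that misses the threshold does not show equal levels.

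**Figure D3:**
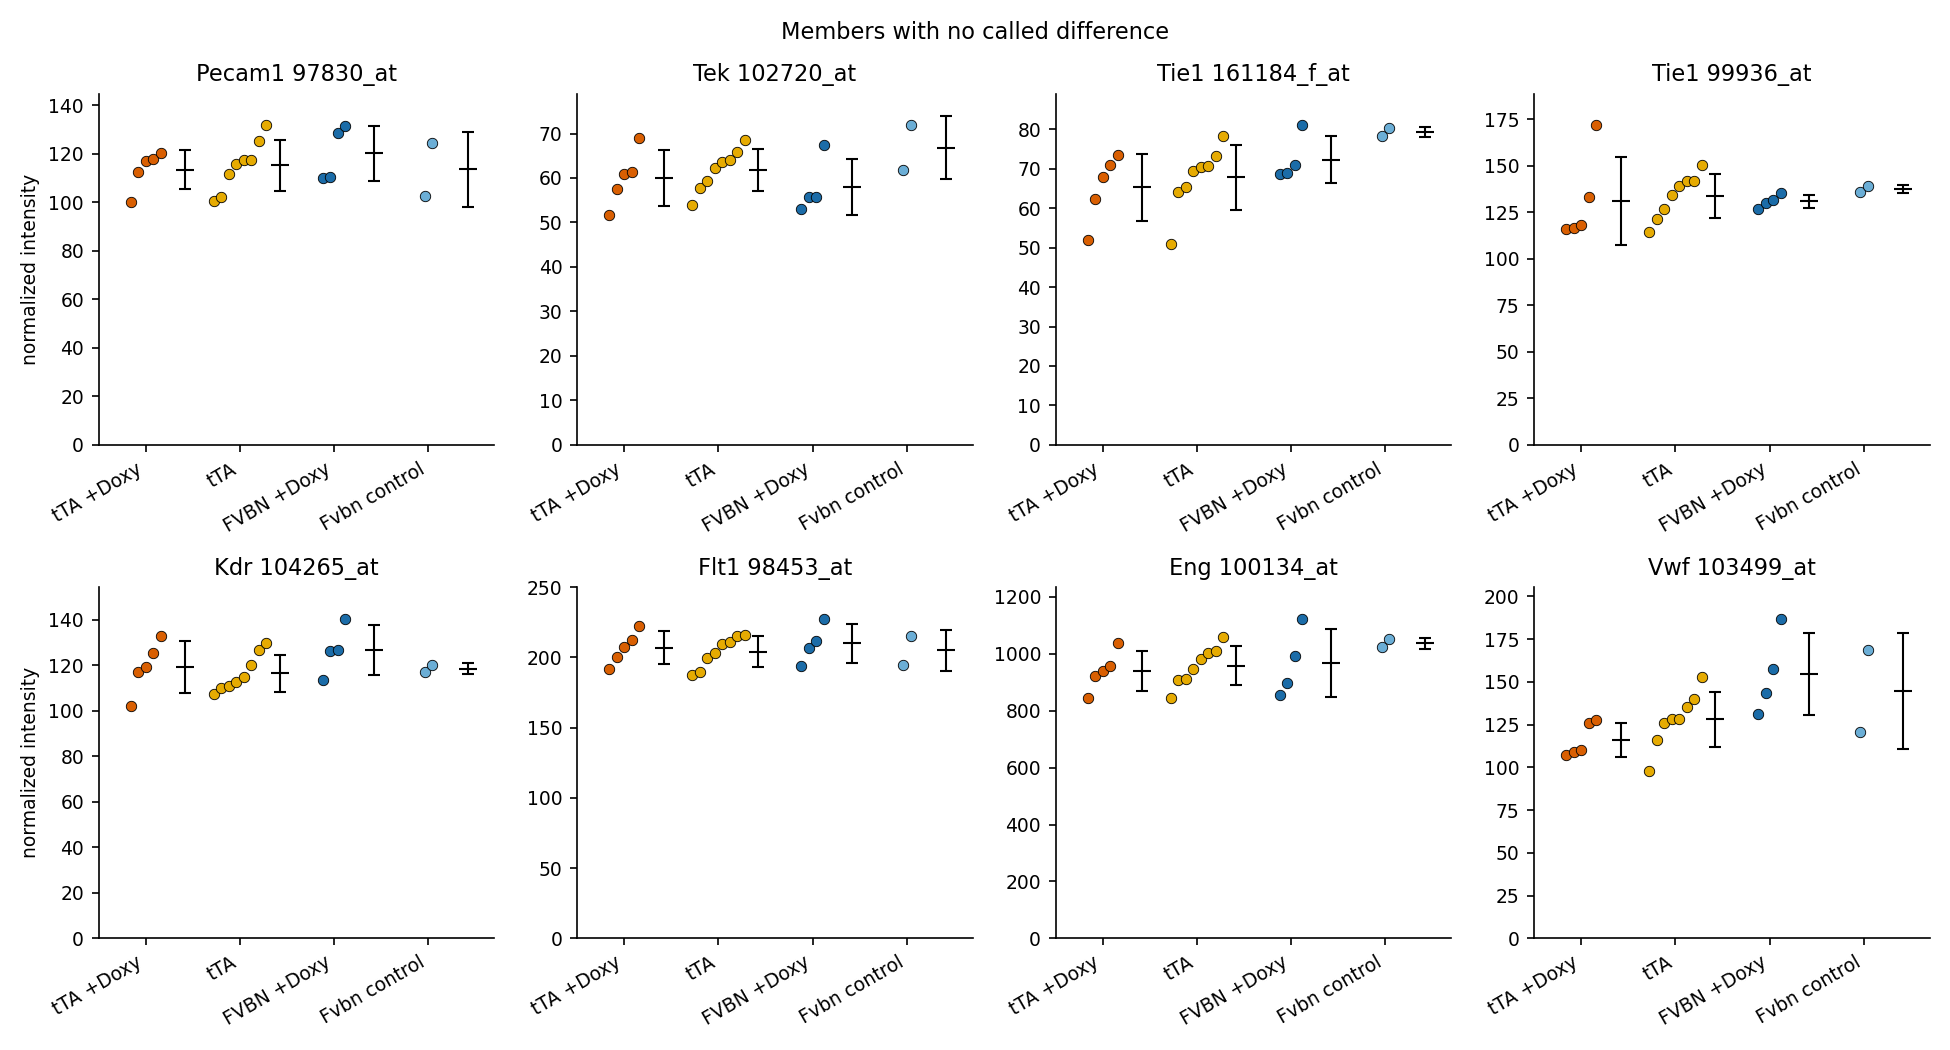
Normalized intensity of 8 member probe sets with no called difference (Pecam1, Kdr, Flt1 98453_at, Tek, both Tie1 probe sets, Eng and Vwf 103499_at), by group, with 1 point per array and the group mean ± SD as a bar beside the points. In the genotype comparisons the groups overlap except for Vwf 103499_at between the +Doxy groups and Tie1 161184_f_at between tTA and Fvbn control.

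Doxy itself was compared within each genotype. Fvbn control arrays are numbered 8177 and 8182, and FVBN +Doxy arrays 8337 to 8341. The tTA +Doxy arrays run from 7399 to 7488, and the tTA arrays from 7288 to 7311 with 9310 and 9322. Drug and whatever the numbers stand for therefore cannot be told apart, here or in the interaction. In FVBN +Doxy against Fvbn control 0 of the 14 member probe sets were called in limma, where 0.0403% of all tested probe sets were. An unadjusted p under 0.05 was reached by 881 of all 7453 tested probe sets and by 3 of the 14. Those 3 were Cdh5 at -0.22 ± 0.09, Emcn 93885_g_at at -0.18 ± 0.08 and Vwf 97052_at at 0.14 ± 0.07, with adjusted p of 0.395, 0.395 and 0.407.

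In tTA +Doxy against tTA 0 of 14 were called, where 0.0671% of all tested probe sets were. An unadjusted p under 0.05 was reached by 574 of all 7453 tested probe sets and by 1 of the 14. This was Cdh5, at -0.19 ± 0.06 (adjusted p = 0.392), with all 5 tTA +Doxy arrays below the tTA mean. Emcn 93885_g_at differed by -0.01 ± 0.05 in that comparison and Icam2 by 0.00 ± 0.06. The 4 comparisons share groups in pairs, so their differences for a gene are not independent of each other.

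The interaction, which subtracts the drug difference in FVBN from that in tTA, asks whether the genotype difference depended on the drug. It was called for 0 of the 14 member probe sets in limma, and for 0.0134% of all tested probe sets. An unadjusted p under 0.05 was reached by 0 of the 14, and by 1084 of all 7453 tested probe sets. The largest estimates were -0.24 ± 0.19 for Vwf 103499_at (adjusted p = 0.542) and 0.17 ± 0.09 for Emcn 93885_g_at (adjusted p = 0.372). The call of Emcn without Doxy and its absence under Doxy are therefore not shown to differ.

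**Figure D4:**
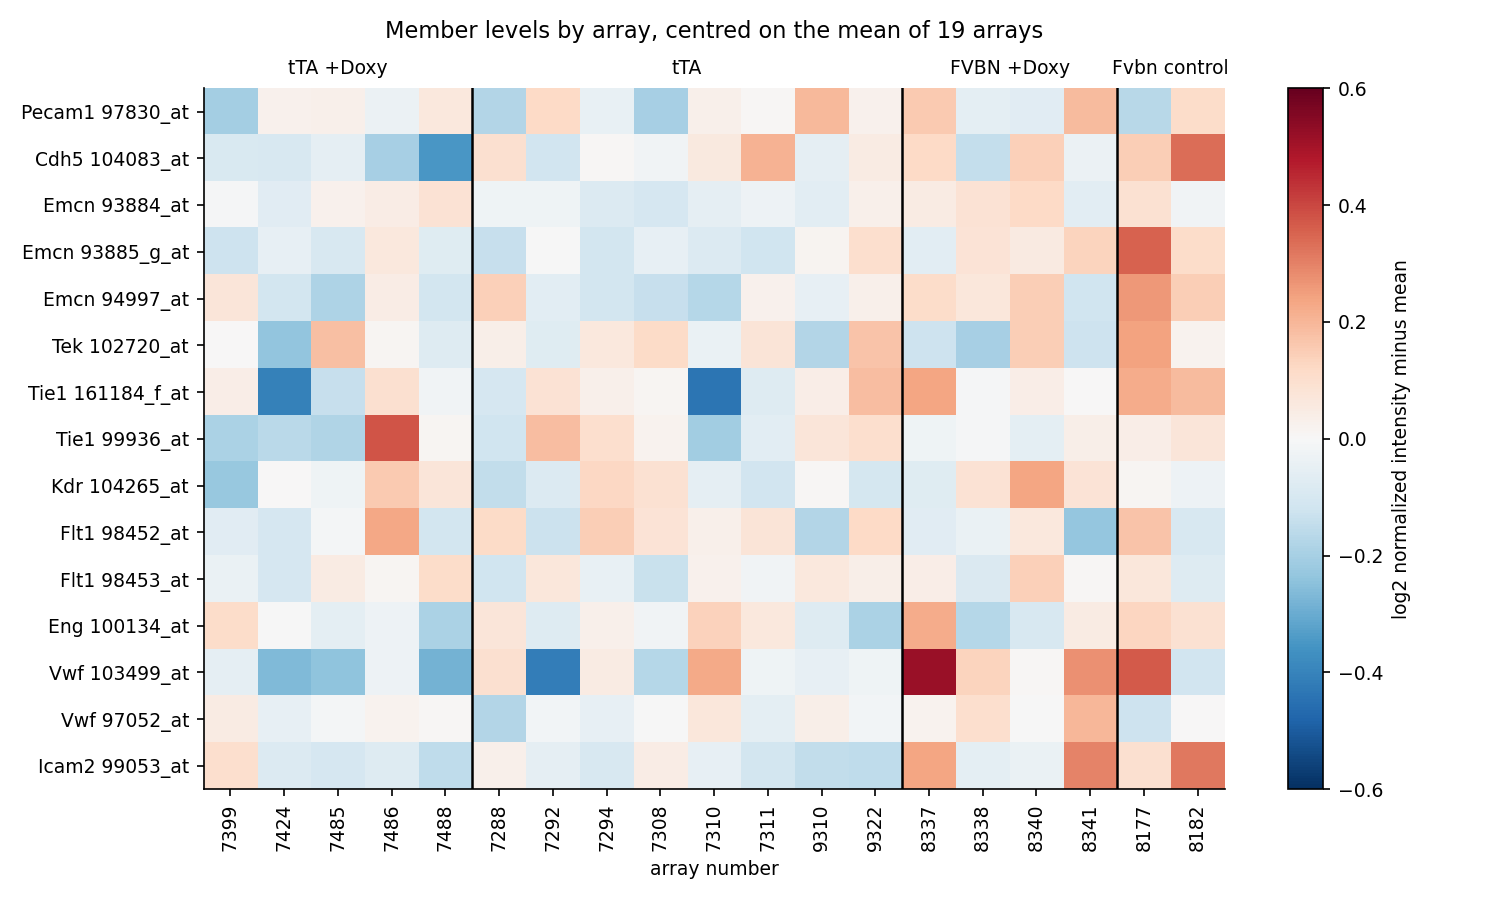
Log2 normalized intensity of the 15 member probe sets on each of the 19 arrays, each centred on its mean over the arrays, with arrays grouped as tTA +Doxy, tTA, FVBN +Doxy and Fvbn control. Red is above and blue below the mean. The Fvbn control columns are mostly red for Emcn, Tie1 161184_f_at, Cdh5 and Icam2, and no array is high or low for all members.

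The summed normalized intensity of the 10 members (1 probe set a gene, the brightest) was 2138 to 2335 on tTA +Doxy arrays and 2206 to 2608 on FVBN +Doxy arrays. It was 2249 to 2443 on tTA arrays, against 2525 to 2576 on Fvbn control arrays. The tTA and Fvbn control sums did not overlap, while those of the +Doxy groups did. Bright probe sets weigh most in such a sum. Eng, which was not called, made up 1038 of the mean sum of 2550 on the 2 Fvbn control arrays and 958 of 2331 on tTA arrays.

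The members did not go up and down together from array to array. After the group means were taken out, the 45 pairs of members had a median correlation of -0.03 over the 19 arrays, with 21 pairs above 0. The median over all pairs of tested probe sets was -0.00126. Eng went with Icam2 at r = 0.67 and with Vwf at r = 0.65, while Cdh5 and Emcn had the lowest value of r = -0.53. For each member the 3 most alike probe sets in the whole table were sought, and no gene came up for 2 or more members. All of these correlations are over the same 19 arrays and share their normalization.

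**Figure D5:**
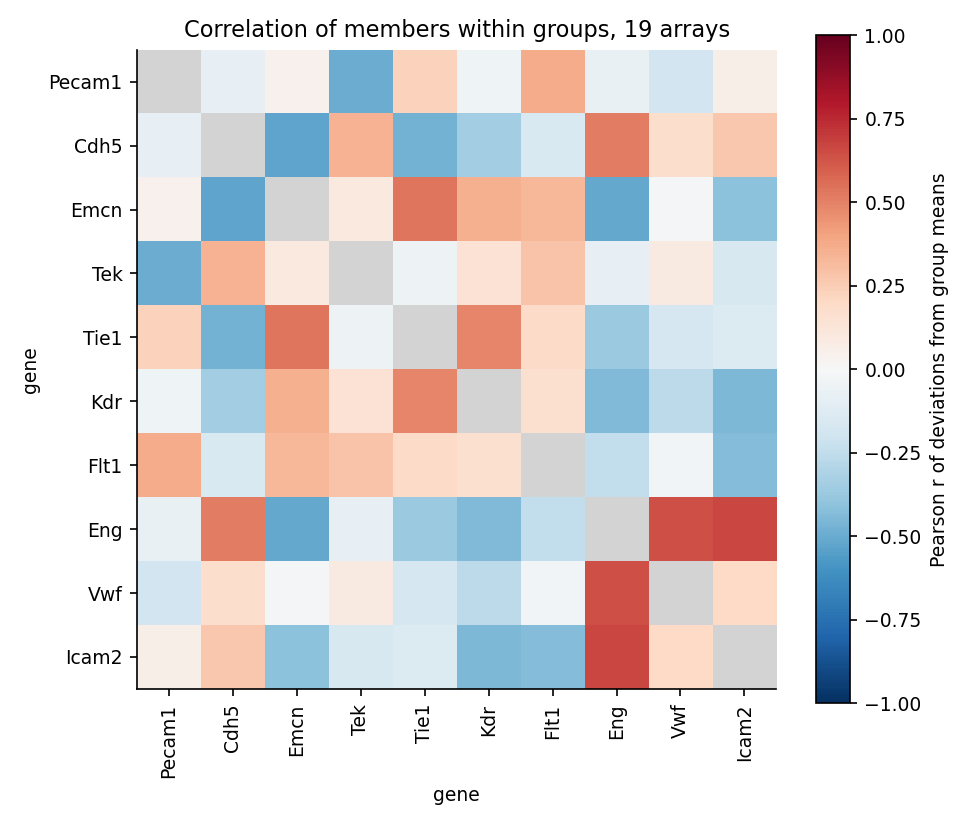
Pearson correlation between the 10 members over 19 arrays, of deviations from the 4 group means, with 1 probe set a gene and the diagonal in grey. Values run from -0.53 for Cdh5 with Emcn to 0.67 for Eng with Icam2, with 21 of 45 pairs above 0.

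Ligands and signalling partners of the members were read from a further list, with each gene represented by its brightest probe set. Calls of genes in this list and those that follow were not checked under other settings. That includes the beta-actin ratio in the fit and single arrays left out. Of 24 genes of the VEGF, angiopoietin and TGF-beta pathways 15 were tested. In the average of both comparisons 3 were lower and 0 higher, with a median log2 difference of -0.06. Of all tested probe sets 4.27% were called lower there and 9.02% in either direction. Nrp1, the neuropilin that presents VEGF to Kdr, fell by 23.7% (-0.39 ± 0.05, adjusted p = 2.51e-05), and its second probe set fell by 20.6% (adjusted p = 0.019). Nrp1 was also lower in each comparison alone, at -0.41 ± 0.07 in tTA +Doxy (adjusted p = 0.00069) and -0.37 ± 0.08 in tTA (adjusted p = 0.00936). Tgfb1, a ligand of the pathway in which Eng acts, fell by 11.2% (adjusted p = 0.00519), and the VEGF family ligand Vegfb fell by 10.3% (adjusted p = 0.0108).

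Partners of Cdh5 and Pecam1 at cell junctions formed a further list. Of 21 genes of this kind 14 were tested, and 9 of the 14 lay below 0 in the average, with a median log2 difference of -0.03. In the average 0 were called lower and 1 was called higher, a share near that of all tested probe sets: F11r, a tight junction adhesion molecule, by 19.98% (adjusted p = 0.00184). Under Doxy 11 of the 14 lay below 0, with a median of -0.04. There 2 were called higher, F11r and Ctnnb1, where 5.89% of all tested probe sets were called in either direction. Ctnnb1, the beta-catenin that binds the tail of Cdh5, was higher by 18.7% in tTA +Doxy than in FVBN +Doxy (adjusted p = 0.04).

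A broader list of 59 endothelial and endocardial genes had 32 tested. In the average 5 were lower and 1 higher, and the median was -0.06. The shares over all tested probe sets were 4.27% lower and 9.02% in either direction. The lower genes were Sparcl1, a matricellular protein (-0.29 ± 0.06, adjusted p = 0.00456), Tfpi, an inhibitor of coagulation (-0.26 ± 0.08, adjusted p = 0.0436), the arterial ligand Efnb2 (-0.21 ± 0.06, adjusted p = 0.0349), the caveolar protein Cav1 (-0.21 ± 0.06, adjusted p = 0.0322) and the transcription cofactor Lmo2 (-0.19 ± 0.04, adjusted p = 0.00213). The higher gene was the water channel Aqp1, by 25.4% (adjusted p = 0.0435). In the single comparisons Aqp1 was called higher under Doxy alone (0.50 ± 0.13, adjusted p = 0.0259). Without Doxy 2 genes were called lower, Tfpi (-0.46 ± 0.12, adjusted p = 0.0396) and Lmo2 (-0.27 ± 0.06, adjusted p = 0.0111). Of all tested probe sets 5.89% were called under Doxy and 2.82% without it.

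Some markers of other cell types were also called in the average, and their part in the results was not tested. Over all tested probe sets 9.02% were called in the average and 4.27% were called lower. These lists are short, and the fibroblast count below is near the share called in either direction. Of 11 tested smooth muscle and pericyte genes 2 were lower in the average (Acta2 at -48.7% and Abcc9 at -30.4%) and 2 were higher (Myl9 by 29.6% and Smtn by 16.8%). Their summed intensity was 1663 to 1885 on tTA +Doxy arrays and 1799 to 1977 on FVBN +Doxy arrays, and 1596 to 1769 on tTA arrays and 1996 to 2089 on Fvbn control arrays. Of 12 tested macrophage and leukocyte genes 2 were lower (Lyz2 at -17.6% and Csf1r at -9.03%), and of 12 tested fibroblast genes 1 was lower (Fbln1 at -11.8%). The macrophage sum was 1734 to 2080.2 on tTA +Doxy arrays and 1971 to 2156 on FVBN +Doxy arrays, and 1664 to 1947 on tTA arrays and 1803 to 1942 on Fvbn control arrays. The fibroblast sum was 5694 to 6014 on tTA +Doxy arrays and 5984 to 6337 on FVBN +Doxy arrays, and 5380.5 to 7073 on tTA arrays and 6317 to 6378 on Fvbn control arrays. Of 4 tested blood and platelet genes 0 were called in limma. Their list's sum was 2702 to 5612 on tTA +Doxy arrays and 5365 to 5832 on FVBN +Doxy arrays, and 2801 to 4952 on tTA arrays and 4949 to 5377 on Fvbn control arrays. Among 14 cardiomyocyte genes Ryr2 fell by 38.4% and Ckm fell by 12.7%, while Mybpc3 was higher by 19.4%. Their summed intensity was 41280 to 45773 on tTA +Doxy arrays and 42349 to 44280 on FVBN +Doxy arrays, and 40642 to 45435 on tTA arrays and 42193 to 45431 on Fvbn control arrays. Among 13 genes of hypoxia and shear response Egln1 fell by 17.0% and Ldha was higher by 19.5%. The mean lay at the floor for 1 pathway partner, 2 junction partners and 2 genes of the broader endothelial list, and for 0 markers of the other lists.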

How the data were processed

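Total RNA from mouse cardiac ventricular tissue was hybridised to Affymetrix arrays. The deposited table holds the authors' intensity values on a linear scale for 12488 probe sets on 20 arrays. How the authors summarised, corrected and scaled them is not given in the sources used here. Deposited medians ran from 60.7 to 62.5. Groups came from sample titles, and 1 array titled without a group entered no comparison.

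The 66 control probe sets were not tested. A platform annotation table linked 10833 of the other 12422 probe sets to 1 gene, 396 to several and 1193 to none, and 10817 were matched to RefSeq by gene ID. Intensities of the 19 grouped arrays were quantile normalized (R 4.3.3, limma 3.58.1). Values under 14.36, their 10th percentile, were set to it, and log2 was taken. The brightest 60% (7453 probe sets, 5658 genes) were fitted in limma with 4 group means, trended and robust variance moderation, and Benjamini-Hochberg adjustment within each comparison. The threshold was an adjusted p below 0.05. The "average" is the mean of both genotype differences. Percent differences come from log2 differences.

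All members are named with every probe set. From the other lists, called genes were named, up to 6 a list. Members and lists were chosen with earlier results of these data known. Control-probe ratios were compared with exact permutation tests. Alternatives covered normalization, floor, filter, weights, variance model, arrays in the fit, covariates, and each array left out in turn. Promoter letters came from RefSeq on GRCm38.p6.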

Additional observations from a re-analysis of the deposited data

Results flagged for a closer look

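On Tie1 161184_f_at, tTA array 7310 read 50.8, far below the other 7 tTA arrays at 64.2 to 78.3. Its gap to the nearest array was 0.541 of the group's whole log2 range, past the 95% limit of Dixon's test for 8 samples. Of 45 groups of member values examined 1 was past its limit, and chance alone puts about 1 in 20 groups there. The same array read 115 on the other Tie1 probe set, 99936_at, the lowest of the tTA arrays there too.

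The array titled without a group entered no comparison. On Vwf 103499_at it read 204, above all 19 arrays with a group, which ran from 97.9 to 187 when all 20 arrays were normalized together. On the other Vwf probe set, 97052_at, it read 81.8, above 8 of the 19 arrays.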

How the results depend on the processing

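Called genes of the other lists were not followed through the alternatives. The alternatives gave 2588 comparisons of a member probe set with a setting. Of these 2544 left the reported call as it was, 27 lost a call, 17 gained one and 0 reversed a called direction. The sign turned in 104 that were called under neither setting. In tTA against Fvbn control the count of called members was 1, and it was 0 with all probe sets tested, 0 with the beta-actin ratio as covariate, 0 with only the arrays compared and 2 with the Xist level as covariate. It ran from 0 (without control array 8177) to 2 (without tTA array 7288) when 1 array was left out. In tTA +Doxy against FVBN +Doxy it was 0, and it was 1 with the brightest 40%, with array weights, without trend and robust moderation and with only the arrays compared, in each case Vwf 103499_at. It ran from 0 to 1 with 1 array left out. In the average it was 4, and it was 2 with all probe sets and 0 with the beta-actin ratio as covariate. It ran from 2 to 5 with 1 array left out, and was 2 without 8177, 8182, 8337 or 7488. In the average Vwf 103499_at also passed with array weights, without trend and robust moderation, with the Xist level as covariate, and without 8182, 8340 or 7310. All probe sets means more tests and only the arrays compared means fewer samples, and for the covariates the cause was not tested. Neither Doxy comparison nor the interaction had a called member under any setting run.

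Counts over all probe sets also moved. In tTA against Fvbn control 210 became 27 with the beta-actin ratio, 54 without array 8177 and 63 without 8182. Its split of 74 higher and 136 lower became 46 and 221 with arrays scaled to the same median, and 69 and 207 with no further normalization. In tTA +Doxy against FVBN +Doxy 439 ran from 284 with all probe sets to 696 with array weights, and was 240 without FVBN +Doxy array 8341. In the average 672 ran from 210 with the beta-actin ratio to 844 with array weights, and was 341 without 8177 and 339 without 8182. The 3 calls of FVBN +Doxy against Fvbn control ran from 1 to 13, the 5 of tTA +Doxy against tTA from 2 to 18, and the 1 interaction call from 0 to 6. Where 1 control array was left out, the lone control was assumed to vary like the other groups. No paired analysis was possible because no array number occurs in more than 1 group. Fvbn control, with 2 arrays, limits the precision of every comparison that uses it.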

Other observations

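The array without a group read lower than all 19 other arrays on 2 member probe sets when the 20 arrays were normalized together. Pecam1 was at 94.9, against 99.9 to 132 on the others, and Emcn 93885_g_at was at 164, against 165 to 232. Kdr was at 102, above 1 of the 19. Icam2, at 147, was above 16 of the 19, and Cdh5, at 301, was above 9. Since its treatment is not labelled, these values belong to no comparison.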
